A study of Mus musculus with 6 samples.

Results

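Long intergenic noncoding RNAs (lincRNAs) of mouse liver were taken from a table of RNA-seq read counts and compared between Ptprd+/- and Ptprd+/+ livers. The members were the rows whose biotype in the table is lincRNA, outside chromosomes X and Y, with a mean level of 1 or more CPM over the 6 libraries, where CPM is a count scaled to its library's total. This took 143 genes out of 1482 lincRNA rows and 25904 genes in all. They were chosen by the annotated biotype and the measured mean level, so their levels are given as a description, while the difference between genotypes was not part of the choice. Of the other lincRNA rows, 1318 autosomal genes had a mean under 1 CPM and 21 lay on X or Y. The members nearest the threshold were C030034I22Rik at 1.01 CPM and Pvt1 at 1.03 CPM, and the nearest lincRNAs left out were Gm45083 at 0.986 CPM and Gm10451 at 0.981 CPM.

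All mice were of the C57BL/6J strain, and polyadenylated liver RNA was sequenced from 3 Ptprd+/+ samples (WT) and 3 samples heterozygous for Ptprd (Ptprd+/-, here Het). Ptprd encodes protein tyrosine phosphatase delta, a receptor-type enzyme, and the series' title ties it to hepatic metabolic disease. The sources used here do not give the kind of altered allele, nor sex, age, diet or time of day. The design text counts 3 per genotype and the labels name no individual mouse, so p-values measure the spread between these samples, which may be technical.

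A lincRNA is a transcript made by RNA polymerase II from its own locus between protein-coding genes, usually spliced and capped, with no long conserved reading frame. Some act as architectural RNAs that hold nuclear bodies together, some bind and sequester proteins or microRNAs, some serve as the carriers from whose introns or exons small RNAs are cut, and for many no function is known. In liver, lincRNAs are transcribed in hepatocytes and in the other cells of the organ, and many are more restricted to a cell type than messenger RNAs are. In bulk tissue, fewer cells of a type and less RNA per cell cannot be told apart.

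Total counts ranged from 37924266 to 72954187 per library. Ptprd itself had 128, 127 and 132 CPM across the WT libraries against 54.1, 78.1 and 63.4 CPM across the Het libraries, so every library matched its label (log2 fold change -0.99, SE 0.14, edgeR adjusted p 0.298, exact permutation p 0.1, the smallest that 3 against 3 libraries allow). Among the hepatocyte markers listed, 8 were tested and summed to 128461 to 153625 CPM in WT and 151354 to 184576 CPM in Het. Het 2 and Het 3 stood apart in the clock output gene Dbp, at 129 and 122 CPM against 13.5 CPM in Het 1 and 14.4 to 29.6 CPM in WT. Of the 20 clock and clock output genes listed, 12 were higher and 8 lower in Het. By edgeR 3 were higher and 3 lower at an unadjusted p under 0.05, against 3.39% and 3.77% of all genes. Their summed levels were 842 to 961 CPM in WT and 632 to 1241 CPM in Het. Fold changes of named lincRNAs that moved by over 1.5 times without Het 2 and Het 3 are given without them below. Of the 10 Kupffer cell and macrophage markers, 2 were higher and 8 lower in Het, with summed levels of 538 to 840 CPM in WT and 407 to 765 CPM in Het. The 9 leukocyte markers tested, 2 higher and 7 lower in Het, summed to 16.5 to 25.1 CPM in WT and 10.8 to 17.2 CPM in Het. The 8 stellate cell markers, 1 higher and 7 lower, summed to 284 to 334 CPM in WT and 258 to 287 CPM in Het. Higher and lower were 3 and 5 of the sinusoidal endothelial markers, 4 and 2 of the cholangiocyte markers and 1 and 4 of the erythroid markers tested. The part of these cell types in the differences below was not tested.

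The 143 lincRNAs together took 0.138, 0.161 and 0.139% of all counts across the WT libraries against 0.133, 0.152 and 0.144% across the Het libraries (replicates 1, 2 and 3 in order, here and below), so the genotypes overlapped. They held 91.0 to 92.3% of the counts of all autosomal lincRNAs. Most of the signal came from few genes. Only Neat1 and Malat1 had a mean of 100 CPM or more by the choosing rule, 21 had 10 to 100 CPM, 71 had 2 to 10 CPM and 49 had 1 to 2 CPM, with a median of 2.84 CPM. Neat1 took 16.5, 13.5 and 15.1% of the members' counts in WT and 17.5, 19.2 and 22.9% in Het. Neat1, Malat1, 1810058I24Rik and AW112010 together took 35.7 to 37.6% in WT and 38.8 to 43.1% in Het. CPM values below are scaled to the effective library size (the trimmed mean of M values, TMM). Fold changes are Het over WT from the fit across all genes, and SE stands for their standard error in log2 units.

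**Figure D1:**
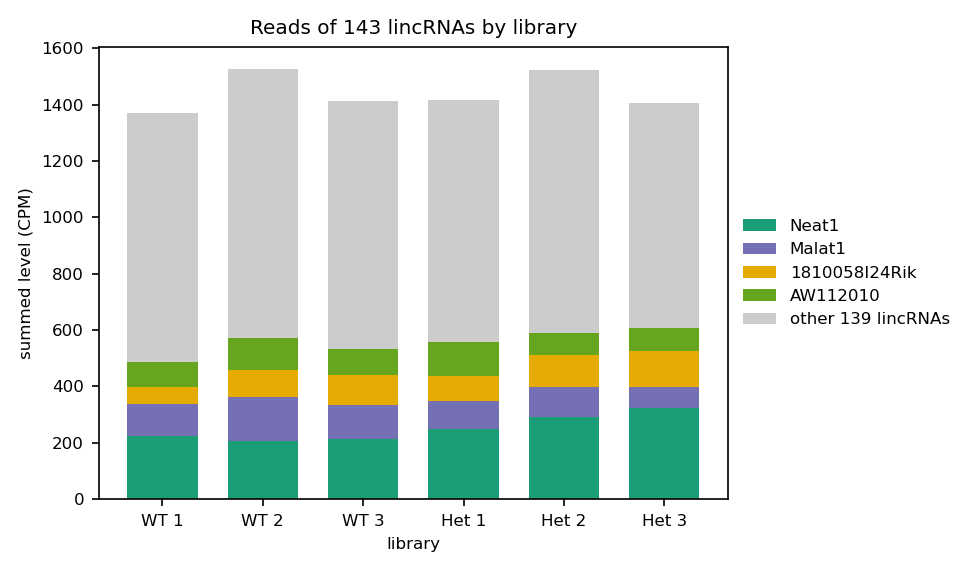
Summed level of the 143 lincRNAs in each library, in CPM, stacked by gene. The total lies between 1369 and 1529 CPM in every library, and the Neat1 part is larger in the 3 Het libraries than in the 3 WT libraries.

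Reads per gene grow with transcript length, so levels were also set per kilobase. Per kilobase of the authors' median transcript length, Malat1 led with a mean of 170 CPM, before AW112010 with 124, Neat1 with 83.6 and 1810058I24Rik with 81.0. Per kilobase of all annotated exons joined, AW112010 led with 119 CPM, before 1810058I24Rik with 35.9, while Malat1 had 15.9 and Neat1 12.1. The order of the most abundant lincRNAs thus depended on the length used, since the annotated transcripts of Malat1 and Neat1 differ widely in length.

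Across the 143 lincRNAs no shift between the genotypes was seen. Their median log2 fold change was 0.00, equal to that of all 14606 genes tested to 2 decimals, with 73 members higher in Het and 70 lower. By edgeR's quasi-likelihood test with Benjamini-Hochberg adjustment over all genes, 0 members passed an adjusted p of 0.05, as 0 genes did in the whole table (0%). The smallest adjusted p of a member was 0.648. At an unadjusted p under 0.05 there were 12 members, 5 higher in Het (3.50% of members, against 3.39% of all genes) and 7 lower (4.90%, against 3.77%). Every Het value exceeded every WT value in 9 members (6.29%, against 7.15% of all genes) and below them in 7 (4.90%, against 6.72%). These shares are near the background of all genes at all levels. At 1.59 to 5.80 CPM, the middle range of the members' levels, 9.86% of 71 members had an unadjusted p under 0.05 in either direction, against 5.11% of 2055 protein-coding genes, a difference that was not tested. The split by direction changed when single libraries were left out. It was 8 members higher and 4 lower without Het 3, and 3 higher and 9 lower without WT 3 or without Het 2. The same split over all genes in these fits is not given here, so a trait of the lincRNAs cannot be told from one of all genes. DESeq2 called 1 member, 1810008I18Rik, at an adjusted p under 0.05 (0.699%, against 0.511% of all genes with an adjusted p). In the authors' deposited table the same gene was the only member under 0.05, where 0.52% of all genes with an adjusted p were. With no filter on low counts, edgeR passed 3 members, 1810008I18Rik (adjusted p 0.0197), Gm42047 (0.0275) and Gm32468 (0.00289), among 73 genes in all.

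**Figure D2:**
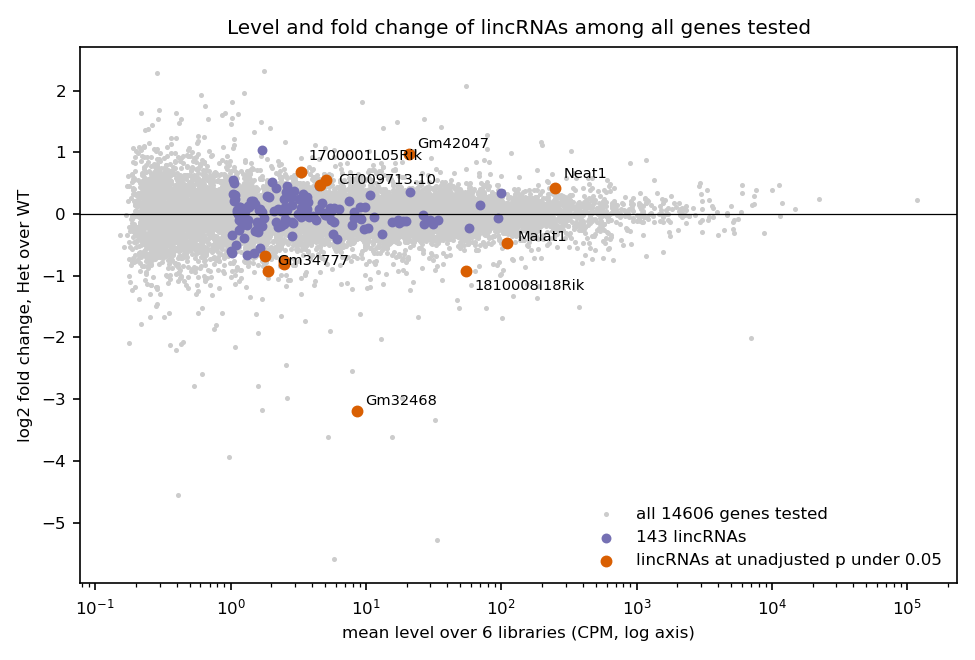
Mean level over the 6 libraries (CPM, log axis) against the log2 fold change of Het over WT. Grey points are all 14606 genes tested, violet points the 143 lincRNAs and orange points the 12 lincRNAs at an unadjusted p under 0.05, among which Gm32468 at -3.20 lies farthest from 0.

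Neat1 and Malat1, neighbours on chromosome 19, differed in opposite directions. Neat1 RNA is the scaffold of paraspeckles, nuclear bodies that hold RNA-binding proteins and retain certain RNAs, and Malat1 RNA collects in nuclear speckles, where splicing factors are stored. Both genes lie on the minus strand (mm10), Malat1 at chr19:5795690-5802672 and Neat1 at chr19:5824708-5845478, with 22036 bases between them. Neat1 had 225, 207 and 213 CPM across the WT libraries against 248, 292 and 322 CPM across the Het libraries. Every Het value exceeded every WT value. This was 215 ± 9.47 CPM for WT against 287 ± 37.2 CPM for Het (SD, n = 3 each), 1.34-fold higher (log2 fold change 0.42, SE 0.12). Its unadjusted p was 0.00775 and its adjusted p 0.649 by edgeR, and the DESeq2 adjusted p was 0.1899. Without Het 2 and Het 3 its log2 fold change was 0.21.

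Malat1 had 111, 156 and 121 CPM across the WT libraries against 99.3, 106 and 74.4 CPM across the Het libraries. Every Het value was below every WT value, with Het 2 close to WT 1. The means were 129 ± 23.5 CPM for WT against 93.3 ± 16.7 CPM for Het (SD, n = 3 each), 1.38-fold lower (log2 fold change -0.47, SE 0.17, edgeR unadjusted p 0.0254 and adjusted p 0.685). Without WT 2, the highest library, the log2 fold change was -0.31, and without Het 2 and Het 3 it was -0.38. The ratio of Neat1 to Malat1 within a library does not depend on library scaling. It was 2.03, 1.33 and 1.76 in WT and 2.498, 2.75 and 4.32 in Het, 1.71 ± 0.355 against 3.19 ± 0.989 (SD, n = 3 each), and since the genotypes did not overlap in either gene, the ratios could not overlap. Malat1 and the long Neat1 isoform end in a triple helix in place of a poly(A) tail. Libraries made from polyadenylated RNA capture such RNAs in part, and counts per gene do not tell the Neat1 isoforms apart.

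**Figure D3:**
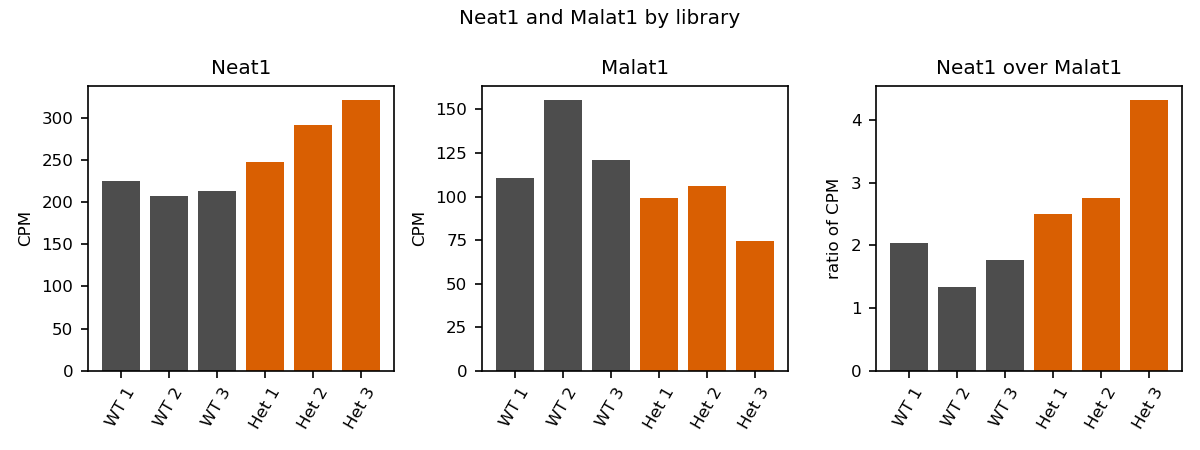
Neat1 and Malat1 in CPM and the ratio of the pair, 1 bar per library, WT in grey and Het in orange. The Het libraries have the 3 highest Neat1 values, the 3 lowest Malat1 values and the 3 highest ratios, from 2.498 to 4.32.

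Proteins that build these nuclear bodies were read from a fixed list. For this and the lists below, 3.39% of all genes were higher and 3.77% lower at an edgeR unadjusted p under 0.05. Without overlap, 7.15% of all genes were higher and 6.72% lower. Of 14 paraspeckle proteins 4 were higher and 10 lower in Het, 0 passed the adjusted threshold and 1 had an unadjusted p under 0.05. This was Cpsf6, a cleavage and polyadenylation factor that binds Neat1 RNA, with 26.3, 33.2 and 30.7 CPM across the WT libraries against 19.9, 20.1 and 27.3 CPM across the Het libraries (log2 fold change -0.42, edgeR adjusted p 0.685). Its partner Nudt21 had 5.77, 5.96 and 6.505 CPM across the WT libraries against 4.36, 4.73 and 5.502 CPM across the Het libraries. Of 12 nuclear speckle proteins 5 were higher and 7 lower, with 0 at an unadjusted p under 0.05. The smallest p was that of Son, a core speckle scaffold, with 174, 185 and 177 CPM across the WT libraries against 138, 176 and 144 CPM across the Het libraries, where Het 2 lay inside the WT range. The splicing factor gene Srsf5 had 173, 188 and 166 CPM across the WT libraries against 147, 171 and 153 CPM across the Het libraries. RNase P and RNase Z take part in the 3′-end processing of Malat1 and of the long Neat1 isoform. Of their 11 genes 7 were higher and 4 lower, and 1 had an unadjusted p under 0.05, the subunit gene Rpp21. Rpp21 had 8.14, 8.77 and 8.51 CPM across the WT libraries against 12.1, 9.600 and 10.4 CPM across the Het libraries, without overlap. Rpp40, another subunit gene, had 7.402, 8.24 and 8.03 CPM across the WT libraries against 5.95, 6.71 and 6.66 CPM across the Het libraries, also without overlap.

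Among the lincRNAs lower in Het, 1810008I18Rik was the member called by DESeq2. It lies on chromosome 7 (chr7:65803111-65806449, plus strand, up to 3 exons) and has no known role. It had 60.7, 80.5 and 73.2 CPM across the WT libraries against 27.6, 54.2 and 31.4 CPM across the Het libraries. Every Het value was below every WT value, with Het 2 close to WT 1. The means were 71.5 ± 10.00 CPM for WT against 37.7 ± 14.4 CPM for Het (SD, n = 3 each), 1.89-fold lower (log2 fold change -0.92, SE 0.25). The edgeR unadjusted p was 0.00535 and the adjusted p 0.648, the DESeq2 adjusted p was 0.0382, and the authors' deposited table gives an adjusted p of 0.0353. Without Het 2 and Het 3 the log2 fold change was -1.37. Its nearest protein-coding gene, Pcsk6, a proprotein convertase 55.3 kb away, had 147, 142 and 129 CPM across the WT libraries against 142, 157 and 163 CPM across the Het libraries, so the neighbour overlapped between the genotypes.

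Gm32468 had the largest fold change of any member in the edgeR fit. It lies on chromosome 10 (chr10:93084206-93093727, plus strand, up to 3 exons). It had 618, 587 and 791 raw counts in WT and 107, 108 and 4 in Het, or 13.4, 11.5 and 21.2 CPM across the WT libraries against 2.94, 2.299 and 0.0537 CPM across the Het libraries. No library of one genotype reached the range of the other, and Het 3 was far below the other Het libraries. The means were 15.4 ± 5.14 CPM for WT against 1.76 ± 1.51 CPM for Het (SD, n = 3 each), 9.16-fold lower (log2 fold change -3.20, SE 0.85, edgeR unadjusted p 0.00534 and adjusted p 0.648, DESeq2 adjusted p 0.427). The size depended on Het 3 and on the tool, at -2.55 without that library, -2.38 without Het 2 and Het 3, -3.82 without Het 1 and -4.76 by limma-voom. The authors' deposited DESeq2 table gives -0.18, with an unadjusted p of 0.0518 and an adjusted p of 0.664. That table also gives smaller sizes for 1810008I18Rik (-0.62, against -0.92 by edgeR) and Ptprd (-0.82, against -0.99 by edgeR). Its fold changes are therefore not directly comparable in size with those of the fits here. The divergent protein-coding gene Cfap54, a cilia and flagella gene 2.59 kb away, was near the detection limit with 0.456, 0.645 and 0.9102 CPM across the WT libraries against 0.329, 0.596 and 0.174 CPM across the Het libraries.

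The 300 bases around the start of 1810008I18Rik and Gm32468 are shown because these had the smallest unadjusted p among the members with a RefSeq promoter, that of Malat1 because it is the most abundant member with one, and that of 1700001L05Rik, described below, because it holds several of the motifs searched. Each runs from 250 bases before the RefSeq start to 50 after it (GRCm38.p6), on the gene's strand. Capitals mark matches to the motifs CACGTG (E-box), TAGGTCA (the core bound by ROR and REV-ERB receptors), the so-called TATA box with the letters TATAAA, the motif CCAAT (the box bound by NF-Y) and CCACG (the core of the ATF6 site) on either strand.
1810008I18Rik (chr7:65802787-65803086, plus strand): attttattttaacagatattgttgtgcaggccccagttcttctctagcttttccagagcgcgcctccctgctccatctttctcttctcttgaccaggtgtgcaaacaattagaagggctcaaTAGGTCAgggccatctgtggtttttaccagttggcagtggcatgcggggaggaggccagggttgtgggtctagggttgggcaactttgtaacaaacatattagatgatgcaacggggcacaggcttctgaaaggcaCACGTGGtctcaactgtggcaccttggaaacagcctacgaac
Gm32468 (chr10:93083986-93084285, plus strand): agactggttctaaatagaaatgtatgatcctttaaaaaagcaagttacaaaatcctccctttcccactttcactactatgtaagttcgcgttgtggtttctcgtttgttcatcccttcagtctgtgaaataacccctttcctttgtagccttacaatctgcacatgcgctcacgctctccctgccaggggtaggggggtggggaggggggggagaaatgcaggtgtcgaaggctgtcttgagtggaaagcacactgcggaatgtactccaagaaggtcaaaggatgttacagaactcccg
1700001L05Rik (chr15:83367248-83367547, minus strand): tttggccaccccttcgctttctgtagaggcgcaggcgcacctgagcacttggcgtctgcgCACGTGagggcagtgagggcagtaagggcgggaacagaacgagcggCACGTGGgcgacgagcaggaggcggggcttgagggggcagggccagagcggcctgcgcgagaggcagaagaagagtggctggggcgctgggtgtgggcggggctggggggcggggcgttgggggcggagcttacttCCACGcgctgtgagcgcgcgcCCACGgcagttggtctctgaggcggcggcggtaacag
Malat1 (chr19:5802623-5802922, minus strand): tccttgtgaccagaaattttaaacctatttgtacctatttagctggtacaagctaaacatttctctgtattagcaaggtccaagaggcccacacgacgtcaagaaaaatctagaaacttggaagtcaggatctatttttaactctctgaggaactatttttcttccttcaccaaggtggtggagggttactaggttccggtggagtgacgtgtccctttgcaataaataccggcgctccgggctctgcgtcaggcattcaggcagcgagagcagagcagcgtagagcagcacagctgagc

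The window of 1810008I18Rik held a ROR and REV-ERB core and an E-box, which overlaps a CCACG match on the other strand, and that of 1700001L05Rik held 2 E-boxes and 3 CCACG matches, of which 1 overlaps an E-box. None of these motifs was found in the Gm32468 or Malat1 windows. Of the 143 members 86 matched a RefSeq promoter by symbol. In 56 of these the RefSeq start lay within 100 bases of the start in GENCODE M21. Other windows lay farther off and may not be the promoter of the annotated gene. Examples are 1700080G11Rik at 56781 bases and 4732465J04Rik at 27056 bases, both with an E-box. Over all 86 windows, the E-box was found in 10 (11.6%, against 7.15% of all 32851 RefSeq windows). The ROR and REV-ERB core was in 6 (6.98%, against 2.61%) and the TATA box in 14 (16.3%, against 13.6%). CCAAT was in 38 (44.2%, against 37.4%) and CCACG in 30 (34.9%, against 32.8%). CACGTG is its own reverse complement, and a CACGTG that follows a C or precedes a G also counts as CCACG. These matches describe the letters of the windows and were not tested.

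Further members that were lower in Het and had an unadjusted p under 0.05 were low in level. Gm34777, on chromosome 10, had 3.21, 2.32 and 1.93 CPM across the WT libraries against 1.37, 1.66 and 0.953 CPM across the Het libraries, without overlap (1.89-fold lower, edgeR adjusted p 0.677). Gm36435, on chromosome 9, had 2.24, 2.58 and 1.77 CPM across the WT libraries against 1.48, 1.72 and 0.953 CPM across the Het libraries, also without overlap (1.602-fold lower, adjusted p 0.694). Its nearest protein-coding gene is Sc5d, an enzyme of cholesterol synthesis 10.5 kb away on the same strand. Sc5d had 729, 795 and 526 CPM across the WT libraries against 428, 659 and 392 CPM across the Het libraries, with Het 1 and Het 3 lowest and Het 2 inside the WT range. In Gm36435 as well, Het 2 was the highest Het library, and its log2 fold change of -0.68 became -0.45 without Het 3.

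Gm32281 had 2.28, 3.09 and 3.99 CPM across the WT libraries against 2.36, 2.04 and 1.17 CPM across the Het libraries, where Het 1 exceeded WT 1 (1.696-fold lower, edgeR adjusted p 0.694). It lies 0.744 kb from Paqr9, a membrane receptor gene of the progestin and adipoQ family that lies downstream on the same strand. Without Het 3 the log2 fold change of Gm32281 was -0.50 and without Het 2 and Het 3 -0.40, against -0.76 with all libraries. Paqr9 had 395, 645 and 601 CPM across the WT libraries against 429, 448 and 432 CPM across the Het libraries. 4930404H11Rik had 3.603, 3.52 and 2.302 CPM across the WT libraries against 1.89, 2.51 and 1.03 CPM across the Het libraries, with Het 2 above WT 3 (1.76-fold lower, log2 fold change -0.81, adjusted p 0.694), and its log2 fold change was -0.51 without Het 3. Gm2061, which overlaps the metal transporter gene Slc30a10 on the opposite strand, had 1.71, 1.797 and 1.93 CPM across the WT libraries against 1.59, 0.788 and 1.17 CPM across the Het libraries (log2 fold change -0.63, unadjusted p 0.0524). Without Het 2 it was -0.41 and without Het 2 and Het 3 -0.18. Slc30a10 had 49.8, 36.5 and 51.3 CPM across the WT libraries against 47.8, 22.99 and 33.1 CPM across the Het libraries. The sources used here do not give the strand setting of the counting, so how reads of such overlapping pairs were assigned is not known.

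Among the lincRNAs higher in Het, Gm42047 on chromosome 8 had the largest fold change at an unadjusted p under 0.05. It had 13.8, 19.3 and 8.700 CPM across the WT libraries against 28.7, 33.1 and 20.8 CPM across the Het libraries. Every Het value exceeded every WT value, although Het 3 was close to WT 2. The means were 13.9 ± 5.28 CPM for WT against 27.5 ± 6.24 CPM for Het (SD, n = 3 each), 1.97-fold higher (log2 fold change 0.98, SE 0.28, edgeR unadjusted p 0.00801 and adjusted p 0.649). The DESeq2 adjusted p was 0.0628, and the authors' deposited table gives 0.0555. Its divergent neighbour Klhdc4, 3.68 kb away, had 15.3, 15.6 and 12.4 CPM across the WT libraries against 17.6, 17.7 and 14.98 CPM across the Het libraries. The annotated transcripts of Gm42047 hold an open reading frame of 393 codons, against a median of 77 codons for the longest frame of the members, so the noncoding label of this gene rests on the annotation.

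1700001L05Rik, on chromosome 15, had 2.32, 2.68 and 2.62 CPM across the WT libraries against 2.55, 4.75 and 4.82 CPM across the Het libraries. Het 2 and Het 3 were high, while Het 1 lay inside the WT range, the same 2 libraries that stood apart in Dbp. Its log2 fold change was 0.68 (SE 0.26, edgeR adjusted p 0.685), and without Het 2 and Het 3 it was 0.01. The part of the clock in this was not tested. Arfgap3, which encodes a GTPase-activating protein of the Golgi and is the nearest protein-coding gene on the same strand at 7.28 kb, had 7.16, 5.55 and 6.398 CPM across the WT libraries against 8.72, 8.56 and 11.02 CPM across the Het libraries (log2 fold change 0.57, unadjusted p 0.00728), and there all 3 Het libraries lay above WT.

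CT009713.10, named AI463229 in GENCODE M21, had 3.19, 4.94 and 4.23 CPM across the WT libraries against 5.38, 5.64 and 7.03 CPM across the Het libraries, without overlap (1.46-fold higher, edgeR adjusted p 0.685). C730027H18Rik had 3.78, 4.22 and 3.43 CPM across the WT libraries against 5.07, 6.62 and 4.25 CPM across the Het libraries, also without overlap but with Het 3 close to WT 2 (1.39-fold higher, log2 fold change 0.48, adjusted p 0.694), and its log2 fold change was 0.29 without Het 2. A second member, AC079680.2, overlaps C730027H18Rik on the same strand and is also named C730027H18Rik in GENCODE M21. Its log2 fold change was 0.13 (edgeR unadjusted p 0.560). After C730027H18Rik, the next by unadjusted p were 2210417A02Rik (0.0593, log2 fold change 0.53), AI480526 (0.0769, 0.35) and Gm39469 (0.0821, 0.55). Of these, AI480526 was the most abundant, with 20.04, 20.3 and 15.4 CPM across the WT libraries against 21.1, 29.8 and 20.5 CPM across the Het libraries. Without Het 2, its highest library, the log2 fold change of AI480526 was 0.16 and that of Gm39469 0.32. Without Het 2 and Het 3 they were 0.18 and 0.26.

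**Figure D4:**
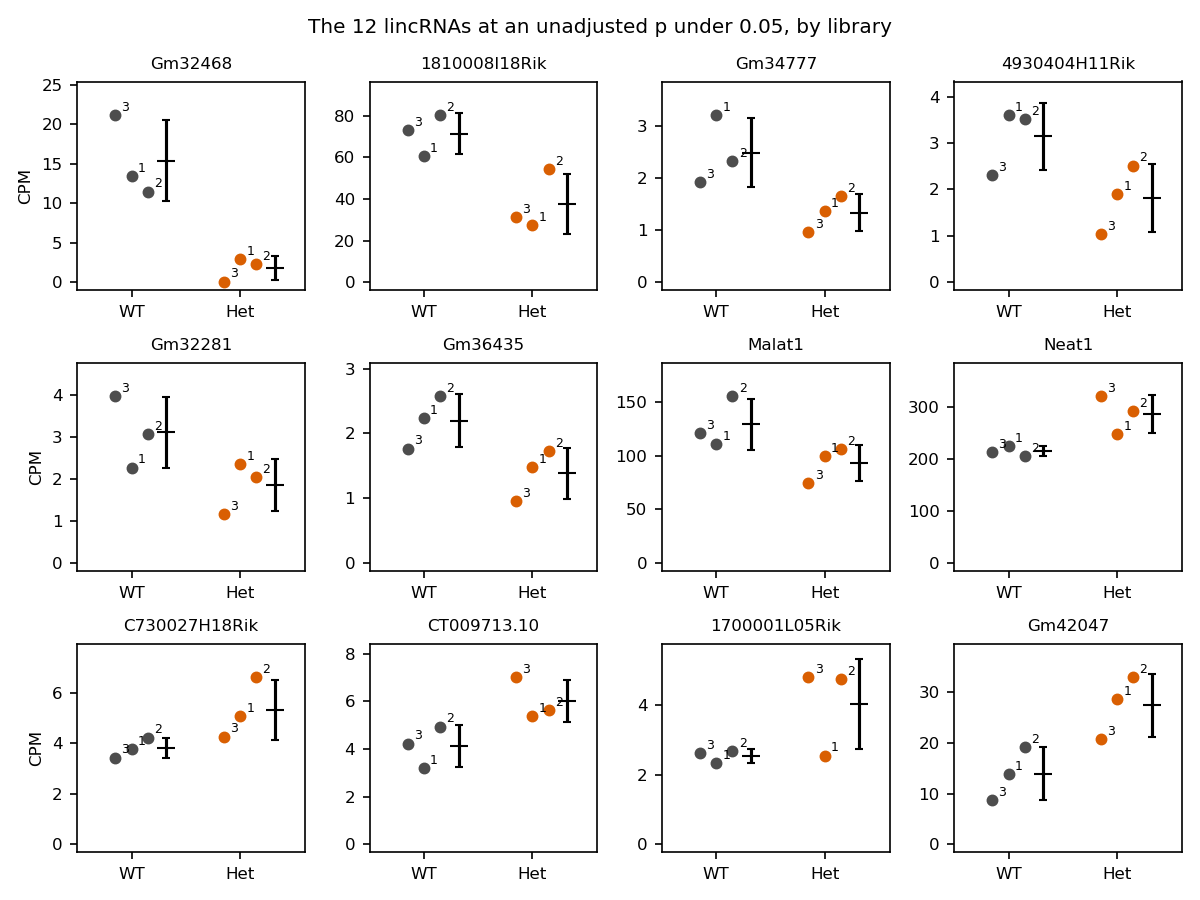
Level in CPM of the 12 lincRNAs at an unadjusted p under 0.05, ordered by fold change, with WT in grey and Het in orange. Points are libraries, marked by replicate number, and bars are the mean and SD of 3, with Gm32468 near 0 in Het 3 and 1700001L05Rik high only in Het 2 and Het 3.

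LincRNAs that carry small RNAs had log2 fold changes from -0.36 in Mir17hg to 0.36 in 2900076A07Rik. Of the members, 6 contain annotated snoRNAs or scaRNAs on their strand and 5 contain microRNAs. The snoRNA hosts release guide RNAs for ribosomal RNA modification from their introns, and their spliced remainder is what is counted here. Snhg6 had 6.49, 5.94 and 8.59 CPM across the WT libraries against 8.997, 6.96 and 8.39 CPM across the Het libraries (log2 fold change 0.21, SE 0.18), Snhg12 a log2 fold change of -0.12, Snhg20 of -0.02, Epb41l4aos of -0.00 and Snhg18 of -0.00. 2900076A07Rik, which contains a snoRNA and a microRNA, had 2.41, 2.58 and 1.71 CPM across the WT libraries against 2.88, 3.19 and 2.603 CPM across the Het libraries, so Het lay above WT without overlap, at a log2 fold change of 0.36 (unadjusted p 0.121). None of these hosts had an unadjusted p under 0.05. Without Het 2 and Het 3 the log2 fold change was 0.37 in Snhg6, 0.02 in Snhg12, -0.30 in Snhg18, 0.06 in Snhg20 and 0.12 in Epb41l4aos. Of the snoRNP core proteins, which bind the released snoRNAs, 4 of 10 tested were higher and 6 lower, with 0 at an unadjusted p under 0.05. The smallest p values were those of Nop10 and Nhp2, both in the H/ACA particle, at log2 fold changes of 0.19 and 0.17, with overlap.

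Mir17hg, the host of a growth-promoting microRNA cluster, had 2.78, 3.05 and 3.69 CPM across the WT libraries against 3.13, 1.64 and 2.67 CPM across the Het libraries (log2 fold change -0.36, SE 0.26, edgeR adjusted p 0.766). Het 2 was the lowest library, and the genotypes overlapped. Without Het 2 the log2 fold change was -0.13 and without Het 2 and Het 3 -0.02. E130102H24Rik, which contains miR-101a, had 3.13, 3.54 and 2.89 CPM across the WT libraries against 3.02, 5.51 and 3.100 CPM across the Het libraries, with Het 2 alone high. 6720427I07Rik, which contains let-7d, had 3.26, 3.58 and 2.84 CPM across the WT libraries against 3.04, 3.43 and 3.905 CPM across the Het libraries. Mature microRNAs are too short for these libraries, so the values are those of the host RNA alone. The mature sequences are shown, from RefSeq (GRCm38.p6), to let the products of these hosts be compared, with the seed (bases 2 to 8) in capitals.
mmu-miR-17-5p (Mir17hg): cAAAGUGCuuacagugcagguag
mmu-miR-20a-5p (Mir17hg): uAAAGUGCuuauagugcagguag
mmu-miR-18a-5p (Mir17hg): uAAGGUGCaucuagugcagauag
mmu-miR-19a-3p (Mir17hg): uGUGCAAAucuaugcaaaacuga
mmu-miR-19b-3p (Mir17hg): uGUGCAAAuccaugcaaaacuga
mmu-miR-92a-3p (Mir17hg): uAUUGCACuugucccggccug
mmu-miR-101a-3p (E130102H24Rik): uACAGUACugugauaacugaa
mmu-let-7d-5p (6720427I07Rik): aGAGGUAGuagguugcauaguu

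Within Mir17hg, miR-17-5p and miR-20a-5p share the seed AAAGUGC, miR-19a-3p and miR-19b-3p share GUGCAAA, and miR-18a-5p has AAGGUGC, so 1 host RNA carries several seed families. Of the 12 listed genes of microRNA processing and action 3 were higher and 9 lower in Het, with 0 at an unadjusted p under 0.05. The smallest p was that of Ago4, an Argonaute gene, with 4.84, 5.22 and 5.59 CPM across the WT libraries against 3.76, 4.598 and 3.93 CPM across the Het libraries, without overlap. Dicer1, which cuts microRNA precursors, had 45.8, 43.1 and 42.9 CPM across the WT libraries against 36.5, 41.3 and 38.5 CPM across the Het libraries, also without overlap.

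The other abundant lincRNAs overlapped between the genotypes. 1810058I24Rik, reported to encode a mitochondrial micropeptide, had 63.3, 94.5 and 107 CPM across the WT libraries against 89.7, 115 and 129.8 CPM across the Het libraries, with WT 1 lowest and Het 3 highest (log2 fold change 0.34, SE 0.21). It was 0.03 without Het 2 and Het 3. AW112010, an interferon-inducible RNA of immune cells, had 88.7, 114 and 90.3 CPM across the WT libraries against 122, 77.6 and 80.4 CPM across the Het libraries, where Het 1 was the highest library and Het 2 the lowest. Its log2 fold change was -0.06 with all libraries, and it changed sign without WT 2 (0.07), without Het 2 (0.06), without Het 3 (0.04) and without both Het 2 and Het 3 (0.33). Tmem250-ps had 72.4, 64.7 and 61.01 CPM across the WT libraries against 80.2, 72.3 and 67.7 CPM across the Het libraries (log2 fold change 0.15, and 0.28 without Het 2 and Het 3).

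1700020I14Rik, the mouse form of Cyrano, which triggers decay of a microRNA, had 66.5, 65.6 and 53.4 CPM across the WT libraries against 43.7, 60.8 and 54.3 CPM across the Het libraries, and Het 1 was the lowest library (log2 fold change -0.22, SE 0.15). This became -0.50 without Het 2 and Het 3. 2900097C17Rik, the mouse form of Norad, which binds Pumilio proteins, had 17.4, 19.1 and 17.2 CPM across the WT libraries against 18.2, 16.6 and 15.5 CPM across the Het libraries (log2 fold change -0.10, SE 0.11), and 0.03 without Het 2 and Het 3. Pvt1, which lies next to the Myc oncogene, had 0.586, 1.895 and 1.23 CPM across the WT libraries against 1.097, 0.681 and 0.657 CPM across the Het libraries, and its log2 fold change of -0.63 became -0.16 without WT 2 and -0.18 without Het 2 and Het 3. Gm26917 and Gm42418, next to each other on chromosome 17 at a copy of 18S ribosomal RNA sequence that RefSeq names Rn18s-rs5, had log2 fold changes of -0.09 and -0.14. Without Het 2 and Het 3 they were -0.03 and 0.25. Gm42418 overlaps that copy, so its reads may come from ribosomal RNA.

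The spread between libraries of the same genotype was set beside that of protein-coding genes of like level. Taking the middle range of the members' levels, 1.59 to 5.80 CPM, the median SD within genotypes was 0.258 on the log2 scale over 71 members and 0.219 over 2055 protein-coding genes, a difference that was not tested. The highest WT library exceeded the lowest by more than 2-fold in 26 members. An example is Gm15611, named after its values were seen, with 2, 52 and 86 raw counts in WT and 161, 43 and 118 in Het. Its log2 fold change of 1.04 had an SE of 0.92. Gm38416, named likewise, had 0.282, 2.95 and 2.68 CPM across the WT libraries against 2.03, 0.873 and 1.18 CPM across the Het libraries, with WT 1 lowest. By class and over all levels from a mean of 1 CPM on autosomes, 8.39% of lincRNAs had an unadjusted p under 0.05, against 7.70% of 11103 protein-coding genes, 7.14% of 112 antisense RNAs and 9.47% of 95 processed transcripts.

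Most lincRNAs lay close to a protein-coding gene. All 143 were found in GENCODE M21 (GRCm38), 133 with the same coordinates as in the deposited table. There 136 were typed lincRNA, and the others were processed transcripts or bidirectional promoter lncRNAs. Within 10 kb of a protein-coding gene were 86, of which 34 were divergent from it, 26 on its strand, 8 convergent, 14 overlapping on the opposite strand and 4 overlapping on the same strand. In 83 of these pairs the neighbour was tested as well, and in 49 (59.0%) both genes had a fold change of the same sign. Among 6668 pairs of protein-coding genes with their nearest protein-coding gene within 10 kb it was 60.8%. Over the 83 pairs, which share the same 6 libraries, the fold changes had a Pearson r of 0.53 and a Spearman rho of 0.47, and 0.45 and 0.46 without Gm32468. Over the protein-coding pairs they were 0.18 and 0.24, which share genes among pairs. These values are descriptions.

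Both genes had an unadjusted p under 0.05 in 1 pair within 10 kb, 1700001L05Rik with Arfgap3. Gm15889, named after its values were seen, lies 6.12 kb from Herpud1, a component of degradation at the endoplasmic reticulum that is induced by stress there. Gm15889 had 5.73, 1.504 and 4.18 CPM across the WT libraries against 3.51, 7.51 and 4.62 CPM across the Het libraries, and Herpud1 had 426, 272 and 423 CPM across the WT libraries against 445, 547 and 682 CPM across the Het libraries. Het 2 was the highest library for the lincRNA and WT 2 the lowest, and the genotypes overlapped. Herpud1 is on a stress list of 18 genes, of which 17 were higher in Het and 13 were higher at an edgeR unadjusted p under 0.05. Of all genes tested, 49.2% were higher in Het and 3.39% were higher at that p. The part of this response in the lincRNA values was not tested.

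**Figure D5:**
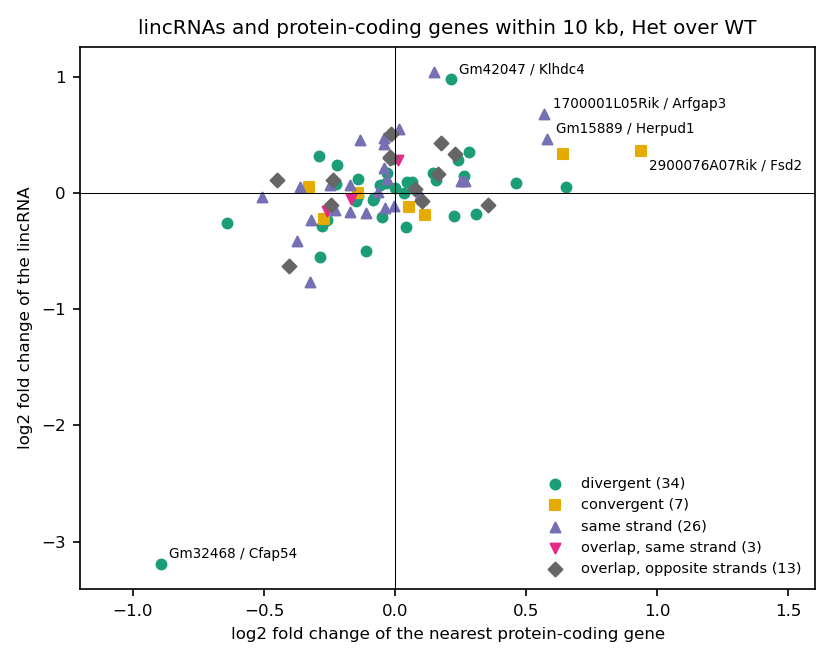
Log2 fold change of the nearest protein-coding gene against that of the lincRNA for the 83 pairs within 10 kb, marked by arrangement. Most pairs lie near 0 on both axes, with Gm32468 and Cfap54 at the lower left and 1700001L05Rik with Arfgap3 at the upper right.

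Factors that degrade noncoding RNAs had small differences. Of 15 tested genes of the nuclear RNA exosome and its adaptors 7 were higher and 8 lower, and of 10 nonsense-mediated decay factors, which degrade many snoRNA host transcripts, 6 were higher and 4 lower. In both lists 0 genes had an unadjusted p under 0.05. The smallest p values were those of Upf1, the central helicase of nonsense-mediated decay, with 68.3, 67.97 and 64.5 CPM across the WT libraries against 78.1, 77.4 and 72.8 CPM across the Het libraries, and of Exosc8, an exosome ring subunit, with 9.31, 8.91 and 9.58 CPM across the WT libraries against 8.202, 8.28 and 8.15 CPM across the Het libraries. In both genes the genotypes did not overlap, Upf1 being higher in Het and Exosc8 lower. Smg6, an endonuclease of the same decay pathway, had a log2 fold change of -0.14, and the exosome nuclease gene Exosc10 of 0.13.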

How the data were processed

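The authors deposited a table of raw read counts per Ensembl gene, 1 column per library, with biotype, coordinates and median transcript length, per the file headers. The submitters' processing notes name the build mm10 and the tools STAR 2.5.3a, HTSeq 0.6.1p1, DESeq2 1.16.1, cutadapt 1.10 and bcl2fastq 2.17.1.14. The sources used here give neither the annotation release nor how strand and multi-mapping reads were treated. Libraries were made with a strand-specific TruSeq kit, per the labels. The deposited normalized columns, which have lost their decimal marks, were not used. The authors' deposited table of log2 fold changes and adjusted p-values, in another unit than the counts, gives WT over Het and was turned to Het over WT.

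Here, edgeR's filterByExpr kept 14606 genes, among them all 143 members. After TMM scaling, genotype was tested with the quasi-likelihood F test of edgeR (4.0.16, R 4.3.3, two-sided, Benjamini-Hochberg over all genes, 0.05). The steps were tested on simulated data. Total counts of 37924266 to 72954187 per library limit the precision of members near 1 CPM. Alternatives were DESeq2 1.42.0, limma-voom (limma 3.58.1), RLE and upper-quartile scaling, 2 other filters, a replicate block, left-out libraries and other level thresholds. Gene structure came from GENCODE M21, promoters and microRNAs from RefSeq tables. Named members were the 8 most abundant, 8 per direction by smallest unadjusted p, characterised lncRNAs, pairs with a neighbour, and 2 genes per partner list. The members and lists were chosen with earlier results of these data known. The values of 1 neighbouring gene are not reported here.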

Additional observations from a re-analysis of the deposited data

How the results depend on the processing

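The count of lincRNAs past the adjusted threshold was 0 in 12 of the 14 other fits, among them limma-voom, which had 12 at an unadjusted p under 0.05. It was 1 with DESeq2 (1810008I18Rik) and 3 with no filter on low counts, where 1810008I18Rik (adjusted p 0.0197), Gm42047 (0.0275) and Gm32468 (0.00289) passed. Over all genes the count was 66 with DESeq2, 73 with no filter and 0 to 1 when 1 library was left out, the 1 without Het 2. Ptprd passed with DESeq2 (log2 fold change -0.98, adjusted p 2.01e-06) and with no filter (-0.98, 5.88e-04). The 12 lincRNAs at an unadjusted p under 0.05 kept their sign in every fit. With 1 library left out 9 to 12 members were under 0.05, of which 6 to 9 were among the 12, with the fewest shared without Het 3. Shares of all genes at that p in the alternative fits are not given here. A trait of the lincRNAs thus cannot be told from one of all genes in these counts. Without both Het 2 and Het 3, a fit that assumes the lone Het library to vary like the others, 7 members were under 0.05, of which 3 were shared. Of 420 fits of single named lincRNAs, 17 moved by more than the spread between replicates, 13 of them without both Het 2 and Het 3, and of these AW112010 (0.33), 2900097C17Rik (0.03) and Gm42418 (0.25) changed sign. RLE and upper-quartile scaling left the same 12 members under 0.05. The median log2 fold change of the lincRNAs stayed between -0.04 and 0.05. The replicate block gave 13, of which 11 were shared. Same-numbered libraries correlated at -0.08, 0.16 and 0.19, and differently numbered ones at -0.37 to 0.21. These values do not settle whether the numbers pair the samples. Thresholds of 0.5 and 2 CPM for membership kept the counts at an unadjusted p under 0.05 within 1.5 times. At a neighbour distance of 50 kb, 62 of 111 pairs had the same sign. Both genes had an edgeR unadjusted p under 0.05 in 2 of these pairs, against 1 within 10 kb. Het 3 had the most counts and Het 1 and WT 3 the fewest, which limits members near 1 CPM most.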

Other observations

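The biotype column leaves out of this set several RNAs that are commonly counted with lincRNAs. Mir22hg, the host of a microRNA that is abundant in liver, had 40.4, 51.7 and 35.3 CPM across the WT libraries against 29.05, 37.3 and 30.9 CPM across the Het libraries, with Het 2 above WT 3 (log2 fold change -0.39, edgeR adjusted p 0.694). Gas5, a snoRNA host that binds steroid receptors, had 51.9, 50.9 and 63.1 CPM across the WT libraries against 68.2, 58.6 and 60.1 CPM across the Het libraries and overlapped between the genotypes (log2 fold change 0.17). Snhg8 had 13.4, 12.5 and 13.9 CPM across the WT libraries against 16.5, 14.8 and 16.1 CPM across the Het libraries, without overlap (log2 fold change 0.25, adjusted p 0.694). The imprinted RNAs H19, with 0.347, 0.488 and 0.509 CPM across the WT libraries against 0.905, 0.617 and 0.322 CPM across the Het libraries, and Meg3, with 0.521, 0.801 and 0.723 CPM across the WT libraries against 0.823, 0.596 and 1.23 CPM across the Het libraries, which are high in fetal liver, were under the level threshold in most libraries.

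Of the autosomal lincRNAs under 1 CPM, 198 were deep enough to be tested and 1120 were not tested. By edgeR 3 of the 198 were higher and 5 lower at an unadjusted p under 0.05, with 0 past the adjusted threshold. Over all genes tested, 3.39% were higher and 3.77% lower at that unadjusted p. Reading frames of 100 codons or more were found in the annotated transcripts of 36 of the 143 lincRNAs, the longest being 918 codons in Gm37494. A run of 15 or more A bases, which oligo-dT could bind, was found in 4 members. Malat1 had a longest run of 12 A and Neat1 of 7 A.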
